A study of Homo sapiens with 18 samples.

Results

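Chemokines are small secreted or membrane-held proteins that steer leukocytes along gradients, and tumour cells can make them too. The 10 chemokine genes described here were CXCL1, CXCL2, CXCL3, CXCL5, CXCL6, CXCL8, CXCL16, CCL2, CCL20 and CX3CL1. Their rows were taken by gene symbol, and the members were chosen with earlier results of these data known. All 10 were found among the 40266 gene symbols of the table, and 8 of them passed the filter of at least 1 TPM in at least 3 libraries that 16093 genes passed. TPM is a level relative to all transcripts of a library and is corrected for transcript length, so levels of different genes can be set side by side.

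The RNA came from the pancreatic ductal adenocarcinoma lines Panc1, which stems from a primary tumour and served as the mesenchymal model, and Panc89, which stems from a lymph node metastasis and served as the epithelial model. Each line was sequenced as parental cells, as Holoclone cells, a clone with cancer stem cell morphology, and as Paraclone cells, a clone without it. Each of these 6 groups had 3 replicates taken at 3 passages, giving 18 libraries. The labels name no treatment and no genetic change in any group. Each Holoclone or Paraclone group was a single-cell-derived clone, so a difference between clones cannot be told apart from a difference between the founder cells, and p-values measure the spread between passages of 1 culture.

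Most chemokines act on receptors of leukocytes. CXCL1, CXCL2, CXCL3, CXCL5, CXCL6 and CXCL8, better known as interleukin-8, bind CXCR2 and attract neutrophils. CCL2 attracts monocytes through CCR2, and CCL20 attracts CCR6-bearing lymphocytes and dendritic cells. CXCL16 and CX3CL1, also called fractalkine, are made as transmembrane proteins that tether cells bearing CXCR6 or CX3CR1 and are released by sheddases. Many of these genes are known targets of the transcription factor NF-kB downstream of interleukin-1 and TNF.

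The values gave no read counts, so the depth of the libraries is unknown and no counting error can be attached to a value. Between 12932 and 14199 genes reached 1 TPM in a library, and transcripts of the mitochondrial genome made up 5.62% to 9.44% of the TPM. KRT8, KRT18 and KRT19, keratins of simple epithelia, were high in both lines, whereas CDH1, the epithelial cadherin, stood at 0.671 to 3.51 TPM in Panc1 libraries and at 73.3 to 107 TPM in Panc89 libraries. Of the 6 ductal epithelial markers, which also include EPCAM and KRT7, 4 were higher and 1 lower in parental Panc89 than in parental Panc1 (limma adjusted p under 0.05). Of all genes tested, 27.5% were higher and 38.5% lower there. The 8 leukocyte markers together came to 0.876 to 7.04 TPM per library and the 4 fibroblast markers to 0.250 to 1.32 TPM, with PTPRC, the pan-leukocyte marker, at most 0.956 TPM. The 4 endothelial markers came to 55.2 to 69.1 TPM in parental Panc89 cells, nearly all of it PECAM1, and to at most 8.90 TPM in the other groups. Their part in the chemokine differences was not tested. In bulk RNA, fewer cells making a transcript and less of it per cell cannot be told apart.

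The parental lines differed in their levels of chemokine mRNA. Parental Panc1 cells were rich in CX3CL1 and CCL2, and parental Panc89 cells in CCL20 and in CXCL1, CXCL8, CXCL2, CXCL16 and CXCL3. Of the 8 members tested, 6 were higher and 2 lower in parental Panc89 than in parental Panc1 cells, by limma with an adjusted p under 0.05. Over all genes tested, 27.5% were higher and 38.5% lower in the same comparison, or 33.9% and 31.5% after median-of-ratios scaling, so a call as such was common.

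**Figure D1:**
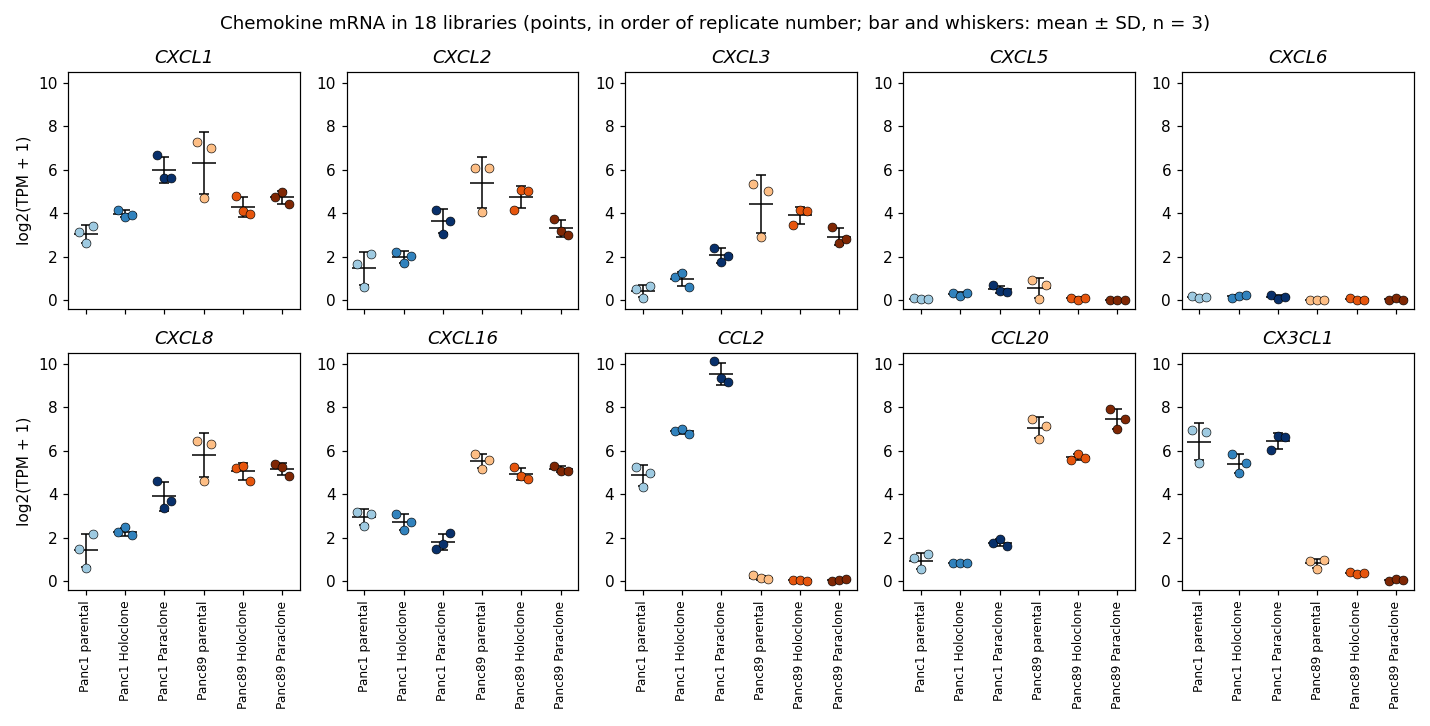
Level of the 10 chemokine mRNAs as log2(TPM + 1) on the vertical axis, in the 3 libraries of each of the 6 groups on the horizontal axis; points are libraries in order of replicate number, and bars and whiskers are the mean ± SD (n = 3). CCL2 and CX3CL1 were high in Panc1 and at most 0.97 in Panc89, and CCL20 showed the opposite. The 2nd parental library of each line lay lowest of its group for CXCL1, CXCL2, CXCL3, CXCL8, CXCL16, CCL20 and CX3CL1.

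Among the CXCR2 ligands, CXCL1 stood at 7.66, 5.11 and 9.77 TPM in the 3 parental Panc1 libraries and at 153, 24.8 and 126 TPM in the 3 parental Panc89 libraries. CXCL8 stood at 1.78, 0.534 and 3.48 TPM in parental Panc1 and at 86.3, 23.6 and 78.1 TPM in parental Panc89. Every parental Panc89 library lay above every parental Panc1 library for both genes. On the log2(TPM + 1) scale CXCL8 was 4.37 ± 0.46 (SE) higher in parental Panc89 (limma adjusted p = 4.85e-07) and CXCL1 3.26 ± 0.50 higher (limma adjusted p = 3.26e-05). CXCL2 and CXCL3 were higher by 3.94 ± 0.50 and 3.98 ± 0.46, again with no overlap between the groups. CXCL5 and CXCL6 did not pass the filter in any comparison. CXCL5 reached at most 0.917 TPM, in parental Panc89, and CXCL6 at most 0.192 TPM, in Panc1 Paraclone cells, and CXCL6 was listed at 0 in all 3 parental Panc89 libraries.

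The 6 CXCR2 ligands lie together on chromosome 4q13, which is why the sequence before their starts is shown. Between the parental lines CXCL1, CXCL2, CXCL3 and CXCL8 were all called higher in Panc89, and CXCL5 and CXCL6 were nearly silent. In some other comparisons, such as that of the Paraclone cells, the ligands were not called together. RefSeq promoters (GRCh38.p14) matched 7 of the 10 members. The 120 bases before the RefSeq start are printed 5′ to 3′ on the strand of the gene for CXCL1 (chr4:73869273-73869392, plus strand), CXCL2 (chr4:74099196-74099315, minus strand), CXCL3 (chr4:74038690-74038809, minus strand), CXCL5 (chr4:73998678-73998797, minus strand), CXCL6 (chr4:73836558-73836677, plus strand) and CXCL8 (chr4:73740449-73740568, plus strand). Capitals mark the motif GGAATTTCC, which is a known kind of NF-kB site:
CXCL1: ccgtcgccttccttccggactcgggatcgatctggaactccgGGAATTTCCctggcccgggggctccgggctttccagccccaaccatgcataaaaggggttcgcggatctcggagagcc
CXCL2: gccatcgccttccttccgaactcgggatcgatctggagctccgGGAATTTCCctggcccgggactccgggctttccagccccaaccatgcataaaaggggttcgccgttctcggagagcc
CXCL3: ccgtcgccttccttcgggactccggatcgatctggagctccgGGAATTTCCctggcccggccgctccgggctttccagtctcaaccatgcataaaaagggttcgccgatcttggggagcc
CXCL5: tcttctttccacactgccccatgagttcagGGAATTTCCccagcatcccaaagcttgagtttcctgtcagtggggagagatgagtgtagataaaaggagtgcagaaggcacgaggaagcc
CXCL6: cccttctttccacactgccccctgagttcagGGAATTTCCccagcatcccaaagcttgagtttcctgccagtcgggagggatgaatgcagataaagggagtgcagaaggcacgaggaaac
CXCL8: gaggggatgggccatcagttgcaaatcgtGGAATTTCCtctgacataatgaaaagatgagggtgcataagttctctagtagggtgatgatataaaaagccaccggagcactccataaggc
In promoters of 300 bases, 250 before to 50 after the start, GGAATTTCC on either strand was found in 6 of the 7 members matched, the 6 CXCR2 ligands, and in 0.461% of 35116 promoters. The printed stretches of CXCL1, CXCL2 and CXCL3 are near copies, as are those of CXCL5 and CXCL6. The 6 matches are therefore not independent of each other. The motif stood before the expressed CXCL1, CXCL2, CXCL3 and CXCL8 and before CXCL5 and CXCL6, which stayed under 1 TPM. Its part in these levels was not tested. The NF-kB consensus GGGRNNYYCC, with R for A or G, Y for C or T and N for any base, was searched on either strand too. It matched CXCL1, CXCL2, CXCL3, CXCL5, CXCL6 and CCL20 and 11.3% of promoters. It needs GGG at its start, so it does not cover the GGAATTTCC of CXCL8. The AP-1 motif TGANTCA was found in CXCL8 alone of the 7 and in 7.71% of promoters, and TATAAA, searched on the strand of the gene, in CXCL8 and CCL20 and in 7.33%. A match is a description of the letters and not a measured binding site.

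CXCL1, CXCL2 and CXCL3 are close copies of each other. Of the stretches of 31 bases in their GENCODE 44 transcripts, 13.7% of those of CXCL1, 23.6% of CXCL2 and 9.23% of CXCL3 also occurred in transcripts of other genes, mostly each other, against 0 for CXCL8 and CCL2. The split of reads among these 3 genes is therefore less certain than their sum. The sum of the 3 was 9.87 ± 3.98 TPM in parental Panc1, 18.7 ± 2.43 in the Holoclone and 80.9 ± 34.8 in the Paraclone cells of that line (mean ± SD, n = 3). In Panc89 it was 176 ± 113 TPM in parental, 60.3 ± 5.69 in Holoclone and 41.6 ± 7.36 in Paraclone cells.

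The 6 CXCR2 ligands added up to 12.3, 6.35 and 17.2 TPM in the 3 parental Panc1 libraries and to 345, 70.3 and 302 TPM in the 3 parental Panc89 libraries. Their make-up also differed. CXCL1 took 66.5% ± 12.4, 64.0% ± 2.44 and 68.2% ± 3.41 of the sum in parental, Holoclone and Paraclone cells of Panc1 (SD, n = 3). CXCL8 took 28.1% ± 4.69 in parental, 35.0% ± 6.56 in Holoclone and 45.9% ± 0.340 in Paraclone cells of Panc89. In Panc1 the share of CXCL8 was 14.4% ± 5.89, 17.1% ± 3.32 and 15.3% ± 1.28, and no Panc1 library reached the lowest Panc89 library. The shares were not tested.

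**Figure D2:**
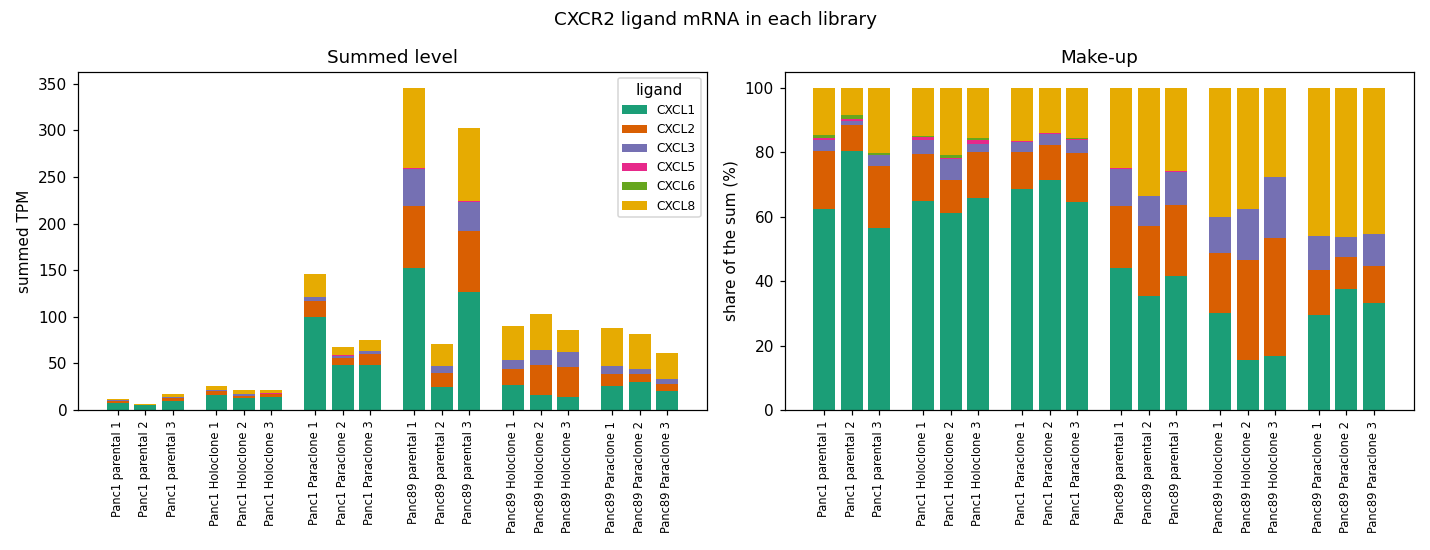
Summed TPM of the 6 CXCR2 ligands (left, vertical axis) and the share of each ligand in the sum (right, vertical axis, percent) in each of the 18 libraries on the horizontal axis, with colours for ligands. Parental Panc89 libraries reached 345 and 302 TPM except the 2nd, at 70.3 TPM, and CXCL1 made up most of the sum in every Panc1 library.

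CCL2, the monocyte attractant, separated the lines the other way. Parental Panc1 libraries held 37.6, 19.4 and 30.3 TPM and parental Panc89 libraries 0.209, 0.0908 and 0.0720 TPM. The groups lay far apart, with a log2 difference of −4.70 ± 0.22 for Panc89 against Panc1 (limma adjusted p = 4.39e-11). CX3CL1 was at 123, 42.8 and 114 TPM in parental Panc1 and at 0.880, 0.480 and 0.964 TPM in parental Panc89, a log2 difference of −5.60 ± 0.32 (limma adjusted p = 3.8e-10). No Panc89 library of any variant reached 1 TPM for either gene.

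CCL20 and CXCL16 were the remaining members on the Panc89 side. CCL20 stood at 1.07, 0.454 and 1.38 TPM in parental Panc1 and at 178, 93.7 and 142 TPM in parental Panc89, a log2 difference of 6.12 ± 0.24 and the largest of the 8 members (limma adjusted p = 5.25e-12). CXCL16 stood at 8.14, 4.75 and 7.61 TPM in parental Panc1 and at 56.3, 35.1 and 46.4 TPM in parental Panc89, higher by 2.59 ± 0.25. No library of one line lay within the range of the other for these genes.

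The same lines were compared clone by clone. Between Holoclone cells, 5 of 8 members were higher and 2 lower in Panc89, where 29.3% and 36.4% of all genes were. CXCL1 was the member not called: it stood at 16.7, 13.3 and 14.1 TPM in Panc1 Holoclone and at 27.1, 16.1 and 14.4 TPM in Panc89 Holoclone cells. These ranges overlapped, and the log2 difference was 0.32 with a 95% interval of −0.75 to 1.39 (limma adjusted p = 0.596). CCL2 was lower in Panc89 Holoclone cells, with a log2 difference of −6.85 ± 0.22, and CCL20 higher by 4.87 ± 0.24.

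Between Paraclone cells, 3 members were higher and 3 lower in Panc89, where 30.2% and 30.4% of all genes were. CCL20, CXCL16 and CXCL8 were higher, by 5.68 ± 0.24, 3.37 ± 0.25 and 1.27 ± 0.46, and CCL2, CX3CL1 and CXCL1 lower, with log2 differences of −9.49 ± 0.22, −6.40 ± 0.32 and −1.25 ± 0.50. CXCL1 therefore stood higher in Paraclone cells of Panc1, at 99.8, 48.7 and 48.8 TPM, than of Panc89, at 26.1, 30.6 and 20.5 TPM, with no overlap. The calls of CXCL1 (limma adjusted p = 0.0417) and CXCL8 (limma adjusted p = 0.025) were the weakest. That of CXCL1 was lost without Panc1 Paraclone replicate 1 and without Panc89 Paraclone replicate 1 or 3, with limma adjusted p up to 0.17. That of CXCL8 was lost without Panc1 Paraclone replicate 2 or 3 and without Panc89 Paraclone replicate 1 or 2, with limma adjusted p up to 0.104. With the replicate number as a block both were lost as well, at limma adjusted p = 0.171 and 0.0796, and with no filter on low values at 0.0838 and 0.0528. CXCL2 and CXCL3 were not called, with 95% intervals of −1.37 to 0.76 and −0.12 to 1.84, although CXCL3 passed when only these groups were fitted (limma adjusted p = 0.0346).

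**Figure D3:**
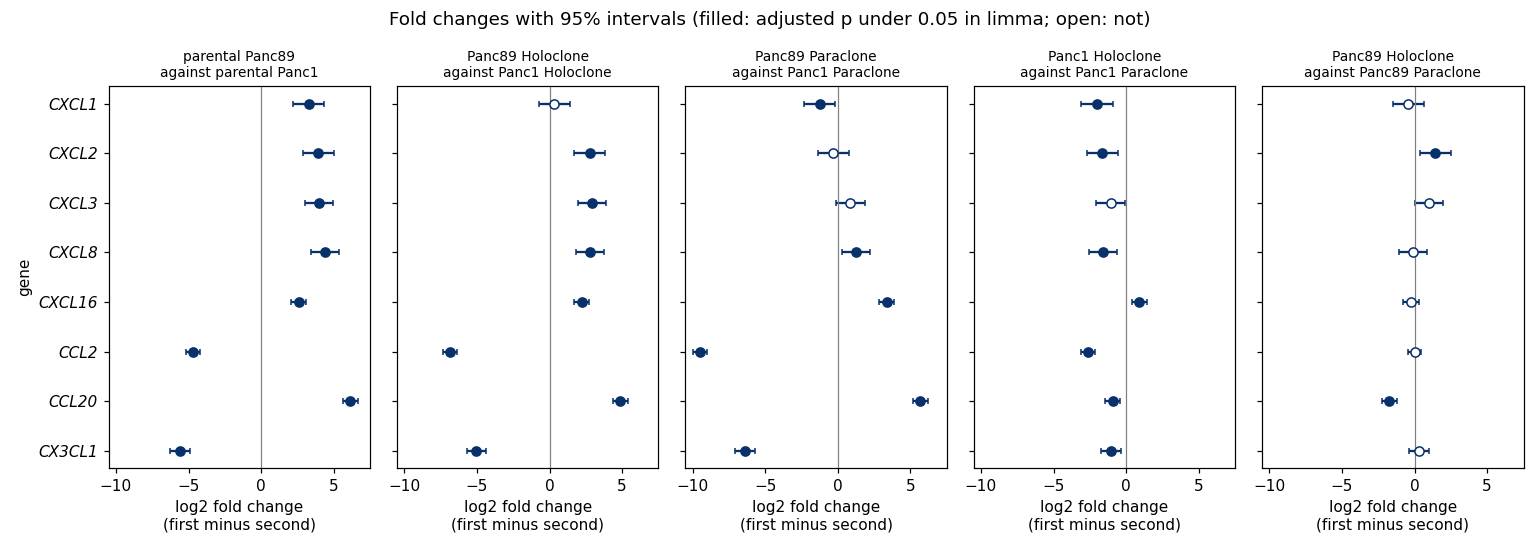
Log2 fold change (horizontal axis, first group minus second) of the 8 members tested (vertical axis) in 5 comparisons, with 95% intervals; filled points had an adjusted p under 0.05 in limma and open points did not. CCL2 and CX3CL1 lay left of 0 in all 3 comparisons of the lines, CCL20 and CXCL16 right of 0, and in Panc1 the Holoclone against Paraclone differences lay left of 0 for 7 of the 8, CXCL16 excepted.

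Holoclone and Paraclone cells were compared within each line to find what set the stem-like clone apart. In Panc1, the Paraclone cells held more of most chemokines. Of the 8 members, 6 were lower and 1 higher in Panc1 Holoclone than in Panc1 Paraclone cells, whereas over all genes 9.97% were lower and 27.4% higher. That background depended on the scaling: the median of all genes lay at 0.19 on the log2 scale as deposited and at 0.00 after median-of-ratios scaling, where 16.6% of genes were lower and 15.1% higher. No member turned its direction under upper quartile or median-of-ratios scaling in any comparison for which a fold is given.

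CCL2 differed most between these clones. It stood at 120.9, 126.0 and 109 TPM in Panc1 Holoclone and at 1106, 642 and 579 TPM in Panc1 Paraclone cells, the highest level of any member in any group. Every Paraclone library lay above every Holoclone library, and the log2 difference was −2.64 ± 0.22 (limma adjusted p = 2.7e-07). CXCL1 stood at 16.7, 13.3 and 14.1 TPM against 99.8, 48.7 and 48.8 TPM, with a log2 difference of −2.01 ± 0.50 (limma adjusted p = 0.00515).

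CXCL2 and CXCL8 were lower in Panc1 Holoclone cells as well, with log2 differences of −1.64 ± 0.50 and −1.61 ± 0.46. CXCL8 held 3.85, 4.55 and 3.30 TPM in the Holoclone libraries and 23.8, 9.45 and 11.8 TPM in the Paraclone libraries. Without Panc1 Paraclone replicate 1, the highest of its group for both, the calls of CXCL2 and CXCL8 were lost (limma adjusted p = 0.0706 and 0.057), and that of CXCL2 was also lost without Panc1 Holoclone replicate 2 (limma adjusted p = 0.0597). CXCL3 had a log2 difference of −1.08 and a 95% interval of −2.06 to −0.10, which did not pass the adjusted threshold (limma adjusted p = 0.0799). It passed with a pseudocount of 0.1, at −1.64 (limma adjusted p = 0.0426), and when only these groups were fitted (limma adjusted p = 0.0192).

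CCL20 stood at 0.804, 0.772 and 0.788 TPM in Panc1 Holoclone and at 2.34, 2.90 and 2.12 TPM in Panc1 Paraclone cells, a low level in both but with no overlap and a log2 difference of −0.94 ± 0.24 (limma adjusted p = 0.00637). CX3CL1 stood at 56.4, 30.1 and 42.3 TPM against 65.0, 100.9 and 98.5 TPM, with a log2 difference of −1.04 ± 0.32 (limma adjusted p = 0.0178). Its call was lost without Panc1 Holoclone replicate 2 or without Panc1 Paraclone replicate 2 or 3, with limma adjusted p from 0.0631 to 0.0873. CXCL16 was the exception in direction. It held 7.45, 4.07 and 5.56 TPM in Holoclone and 1.79, 2.31 and 3.61 TPM in Paraclone cells, higher by 0.91 ± 0.25 (limma adjusted p = 0.00843).

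In Panc89 fewer members were called between the clones. CCL2 and CX3CL1 are counted among the 8 but lay under 1 TPM in each Panc89 library. They passed the filter through Panc1 libraries and gave no usable difference here. CCL20 was lower and CXCL2 higher in Panc89 Holoclone than in Panc89 Paraclone cells, 1 of 8 in each direction, where 13.3% and 22.4% of all genes were lower and higher. After median-of-ratios scaling those shares were 18.6% and 18.1%. CCL20 stood at 47.3, 56.7 and 50.3 TPM in Holoclone and at 240.1, 127 and 174 TPM in Paraclone libraries, well apart, with a log2 difference of −1.75 ± 0.24 (limma adjusted p = 4.71e-05). CXCL2 stood at 16.9, 32.1 and 31.5 TPM against 12.4, 8.04 and 7.05 TPM, higher by 1.43 ± 0.50 (limma adjusted p = 0.0352). That call was lost without Holoclone replicate 2 or 3 or Paraclone replicate 2 or 3, with limma adjusted p from 0.0703 to 0.112. It was also lost with a pseudocount of 0.1, with no filter on low values and with median-of-ratios scaling (limma adjusted p = 0.0634, 0.069 and 0.0514).

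The other members of Panc89 were not called between the clones. The 95% intervals of the log2 difference were −1.51 to 0.63 for CXCL1, −1.09 to 0.85 for CXCL8 and −0.77 to 0.28 for CXCL16. CXCL3, at 9.92, 16.5 and 16.4 TPM in Holoclone and 9.21, 5.08 and 5.94 TPM in Paraclone libraries, did not overlap between the clones but missed the threshold (limma adjusted p = 0.112). CCL2 and CX3CL1 were under 1 TPM in both clones, and no fold is given for them.

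Whether the clone difference itself depended on the line was tested by the interaction, the Panc89 difference minus the Panc1 difference. It passed the threshold in 4 members upwards and in 1 downwards, against 14.8% and 20.4% of all genes. CXCL2 had the largest value, 3.07 ± 0.71 (limma adjusted p = 0.00323): its mean log2(TPM + 1) was 1.98 in Holoclone and 3.62 in Paraclone cells of Panc1, and 4.74 and 3.31 in those of Panc89. CXCL3 had 2.06 ± 0.65 and CXCL16 had −1.15 ± 0.35. CCL2 had 2.64 ± 0.32 and CX3CL1 1.36 ± 0.45, and Panc89 cells held under 1 TPM of either. In Panc89 the mean log2(TPM + 1) of CCL2 was 0.049 in Holoclone and 0.051 in Paraclone cells. Its value was thus in effect the Panc1 difference of −2.64 with the sign turned. The mean log2(TPM + 1) of CX3CL1 was 5.41 in Holoclone and 6.45 in Paraclone cells of Panc1, and 0.38 and 0.054 in those of Panc89, so levels under 1 TPM made up some of its value. The calls of CXCL3 and CX3CL1 were each lost without some single libraries, and that of CX3CL1 also with no filter on low values (limma adjusted p = 0.0558). For CXCL3 these were Panc1 Holoclone replicate 3, Panc1 Paraclone replicate 1 and Panc89 Holoclone replicate 2, with limma adjusted p up to 0.0565, and for CX3CL1 Panc1 Holoclone replicate 2, Panc1 Paraclone replicates 2 and 3 and Panc89 Paraclone replicates 1 and 3, with limma adjusted p up to 0.0747. CXCL1, CXCL8 and CCL20 were not called, with 95% intervals of 0.06 to 3.09, 0.12 to 2.87 and −1.54 to −0.07. All 3 passed when only the clones were fitted (limma adjusted p = 0.0151, 0.0203 and 0.0493), and CCL20 also without Panc89 Paraclone replicate 2 (limma adjusted p = 0.0231).

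The clones were also set against the parental cells they came from. These comparisons share the parental libraries within a line. In Panc1, CCL2 rose over the parental level in both clones. Parental, Holoclone and Paraclone means were 4.86 ± 0.47, 6.90 ± 0.11 and 9.54 ± 0.50 on the log2(TPM + 1) scale (SD, n = 3), with no overlap between any pair of these groups. Holoclone cells were 2.03 ± 0.22 (SE) above parental cells (limma adjusted p = 2.22e-05) and Paraclone cells 4.68 ± 0.22 above them (limma adjusted p = 6.39e-10). The parental level of CCL2 thus lay below both clones.

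CCL2 was the 1 member called between Panc1 Holoclone and parental cells, with 1 of 8 higher and 0 lower by limma, where 5.87% and 5.06% of all genes were. CX3CL1 had a log2 difference of −1.01 ± 0.32 there (unadjusted p = 0.00641, limma adjusted p = 0.0558). Without parental replicate 2, in which CX3CL1 was lowest, it was −1.49 with a limma adjusted p of 0.000889. Without Holoclone replicate 1 it was −1.22 with a limma adjusted p of 0.0435.

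Panc1 Paraclone cells held 6 of 8 members above and 1 below the parental level, against 7.31% and 21.3% of all genes, or 12.5% and 11.0% after median-of-ratios scaling. CXCL1 was higher by 2.92 ± 0.50, CXCL8 by 2.48 ± 0.46, CXCL2 by 2.16 ± 0.50, CXCL3 by 1.63 ± 0.46 and CCL20 by 0.83 ± 0.24, and CXCL16 had −1.14 ± 0.25. CX3CL1 was not called, at 0.03 with a 95% interval of −0.65 to 0.71. Without parental replicate 2 the calls of CXCL3 (limma adjusted p = 0.0531) and CCL20 (limma adjusted p = 0.0834) were lost. That of CXCL3 was also lost without Paraclone replicate 1 (limma adjusted p = 0.0536) and that of CCL20 without Paraclone replicate 2 (limma adjusted p = 0.0753).

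In Panc89, 0 members were called higher by limma in either clone than in parental cells, and 0 at an unadjusted p under 0.05, where 16.1% of all genes were higher in Holoclone and 9.37% in Paraclone cells. CCL2 and CX3CL1, under 1 TPM in each Panc89 library, are counted among the 8 members in these comparisons too and gave no usable difference. In Holoclone cells CXCL1 and CCL20 were lower, 2 of 8 against 8.61% of all genes, with log2 differences of −2.03 ± 0.50 (limma adjusted p = 0.00763) and −1.36 ± 0.24 (limma adjusted p = 0.000672). The ranges of CXCL1 overlapped, and its call was lost when only these groups were fitted (limma adjusted p = 0.106). CXCL16, not called, passed with upper quartile and with median-of-ratios scaling (limma adjusted p = 0.0473 and 0.0399) and without Holoclone replicate 1 (limma adjusted p = 0.0466). After median-of-ratios scaling the shares of all genes higher and lower in Holoclone cells were 12.2% and 11.7%. In Paraclone cells CXCL2, CXCL1 and CXCL3 were lower, 3 of 8 against 10% of all genes, with log2 differences of −2.09 ± 0.50, −1.59 ± 0.50 and −1.50 ± 0.46. The ranges of CXCL1 and CXCL3 overlapped. None of the 3 was called when only these groups were fitted (limma adjusted p = 0.0797, 0.198 and 0.205). With no filter on low values the calls of CXCL1 and CXCL3 were lost (limma adjusted p = 0.0735 and 0.0663), and with a pseudocount of 0.1 that of CXCL3 (limma adjusted p = 0.0768). CCL20 of Paraclone cells was not called against parental cells, with a 95% interval of −0.13 to 0.90.

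These last counts moved with the parental Panc89 libraries. Replicate 2 held 24.8 TPM of CXCL1, 15.4 of CXCL2, 6.49 of CXCL3 and 23.6 of CXCL8, each the lowest of its group and within or near the range of the clones. Without it, 5 of 8 members were called in Holoclone cells against parental cells. CXCL2 (−1.33, limma adjusted p = 0.0362), CXCL3 (−1.27, limma adjusted p = 0.00623) and CXCL8 (−1.33, limma adjusted p = 0.0299) were then lower as well. Without replicate 1 or 3 of the parental cells, 1 of 8 was called in Paraclone cells, and the calls of CXCL1 and CXCL3 were lost with limma adjusted p from 0.147 to 0.185. Leaving out Paraclone replicate 3 had the same effect on the count, and Paraclone replicate 1 (CXCL1, limma adjusted p = 0.0855) and 2 (CXCL3, limma adjusted p = 0.073) each ended 1 call.

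Replicate 2 of parental Panc1 was low for the same 4 ligands, and lowest of its group for CXCL16, CCL2, CCL20 and CX3CL1 as well. Replicate 2 of parental Panc89 was also lowest of its group for CXCL16, CCL20 and CX3CL1, though not for CCL2. In parental Panc1 the early response genes EGR1 and FOS were lowest in replicate 2 too, but replicate 3 was the library that stood apart. EGR1 stood at 19.4, 2.71 and 375 TPM and FOS at 10.6, 7.94 and 129 TPM in the 3 parental Panc1 libraries. In parental Panc89 they did not set replicate 2 apart, with EGR1 at 352, 305 and 397 TPM and FOS at 280, 270 and 358 TPM. The part of these factors in the chemokine levels was not tested.

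Genes next to the ligand cluster on 4q13 gave context for these differences. The stretch from ANKRD17 to PARM1 spans 1.977 Mb in GENCODE 44 on GRCh38 and holds 21 protein-coding genes, of which 12 were tested, 4 of them members. Between the parental lines all 4 members and 7 of the 8 other genes were higher in Panc89, where 27.5% of all genes were, or 33.9% after median-of-ratios scaling. AREG, EREG and EPGN, which encode ligands of the EGF receptor family, differed most among the neighbours, by 6.71 ± 0.44, 4.50 ± 0.29 and 4.29 ± 0.27 on the log2 scale.

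Between the Panc1 clones, 3 of the 4 members tested in this stretch and 3 of the 8 other genes were lower in Holoclone cells, where 9.97% of all genes were, or 16.6% after median-of-ratios scaling. EREG stood at 0.144, 0.382 and 0.145 TPM in Holoclone and at 77.2, 52.1 and 46.4 TPM in Paraclone libraries, and AREG had a log2 difference of −5.14 ± 0.44. RASSF6 and MTHFD2L, which lie on either side of the ligands, were not called. Between the Panc89 clones, 1 member was higher, and of the 8 others 2 were higher and 2 lower, among them EPGN at −4.02 ± 0.27, where 22.4% and 13.3% of all genes were higher and lower.

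**Figure D4:**
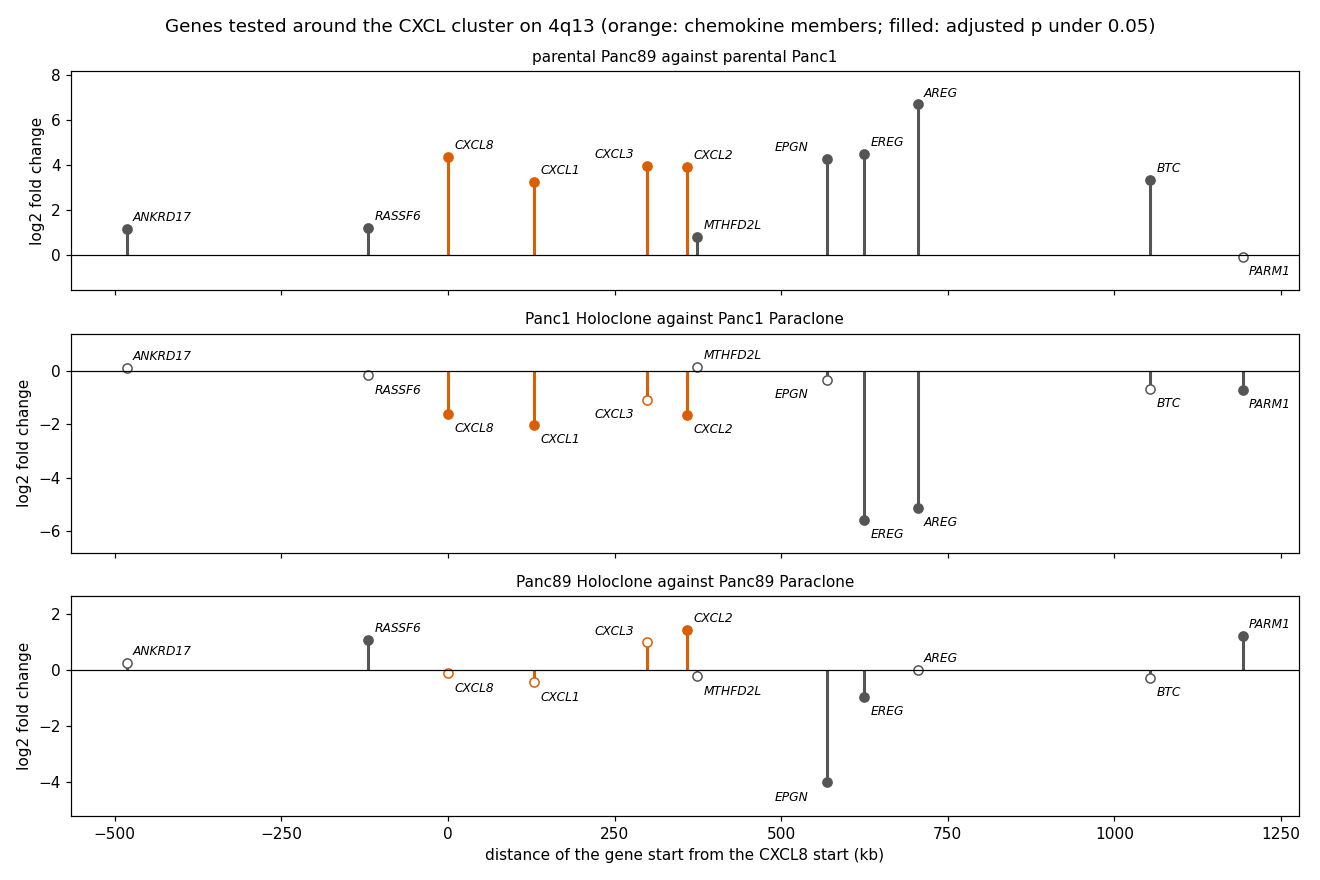
Log2 fold change (vertical axis) of the 12 genes tested around the CXCR2 ligand cluster on 4q13 against the distance of each gene start from that of CXCL8 in kb (horizontal axis), in 3 comparisons; orange marks members, grey the other genes, and filled points had an adjusted p under 0.05 in limma. In the Panc1 clones EREG and AREG had larger differences than any ligand of the cluster.

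The remaining members lie elsewhere: CXCL16 on chromosome 17 (chr17:4733533-4739928, minus strand), CCL2 on the same chromosome (chr17:34255274-34257208, plus strand), CCL20 on chromosome 2 (chr2:227805739-227817564, plus strand) and CX3CL1 on chromosome 16 (chr16:57372477-57385044, plus strand), all as whole genes of GENCODE 44 on GRCh38. CCL2 and CX3CL1, the pair of Panc1 chemokines, are not neighbours, nor are CCL20 and the CXCR2 ligands.

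The members' patterns over the 6 groups were set side by side as the root mean square difference of their centred group means on the log2 scale, as a description. CXCL2 and CXCL3 were closest, at 0.34, and CXCL3 and CXCL8 next, at 0.43, and CXCL1 lay 0.91 from CXCL2. CCL2 was nearest to CX3CL1, at 1.53, and farthest from CCL20, at 6.40. Over the 4288 tested genes with a range of at least 2, GBP1 was most like CXCL3 (0.22), CXCL3 itself most like CXCL2 (0.34), CAMSAP3 most like CXCL16 (0.16), KCNMA1 most like CX3CL1 (0.29) and C15orf48 most like CCL2 (0.52).

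The receptors for these ligands were nearly absent from the cells. Of 23 chemokine receptor genes, 2 passed the filter. CXCR2 reached 3.13 TPM in Panc89 Holoclone replicate 1 and at most 0.534 TPM elsewhere, and CCR2, CCR6, CX3CR1 and CXCR6, the receptors of CCL2, CCL20, CX3CL1 and CXCL16, stayed at or under 0.177 TPM. CXCR4, the receptor of a ligand outside the members, stood at 3.86, 3.46 and 4.31 TPM in parental Panc89 and at 29.4, 8.91 and 24.2 TPM in Panc89 Paraclone cells. It was listed at 0 in all 3 Panc89 Holoclone libraries and stayed at or under 0.218 TPM in Panc1. CCR10 was the other receptor tested, at 4.40, 3.69 and 4.51 TPM in Panc1 Holoclone and 1.58 to 2.12 TPM in the other Panc1 libraries.

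Of 37 other chemokine ligands, 8 were tested. Between the parental lines 7 were higher in Panc89 and 0 lower by limma, also at an unadjusted p under 0.05. Of all genes, 27.5% were higher and 38.5% lower there. CXCL10, an interferon-inducible ligand of CXCR3, stood at 23.4, 3.92 and 25.6 TPM in parental Panc89 and at most 0.109 TPM in Panc1, and CXCL17 stood at 4.56, 2.10 and 5.09 TPM. CCL5, which attracts T cells, was present in both lines and higher in parental Panc89 by 2.05 ± 0.67 (limma adjusted p = 0.0138). Between the Panc1 clones 0 of the 8 were called by limma, and 0 had an unadjusted p under 0.05, where 27.4% of all genes were higher and 9.97% lower. All 37 ligands together came to 10.7 to 19.7 TPM in the libraries of these clones. Ligands that passed the filter through Panc89, such as CXCL10, lay near 0 in both clones and could hardly be called. The count is therefore no result about them. Between the Panc89 clones 2 were higher and 2 lower, where 22.4% and 13.3% of all genes were. CXCL17 differed by −1.54 ± 0.30 in Holoclone against Paraclone cells. CXCL10 was higher in Holoclone cells by 2.43 ± 0.71, although its 3.60, 10.9 and 24.6 TPM there overlapped the 0.0814, 5.82 and 0.200 TPM of the Paraclone libraries.

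Genes around NF-kB were counted from lists of its subunits and inhibitors, of its other targets and of the receptors and adaptors upstream of it. Beside these lists and those below, the shares of all genes higher and lower were 27.5% and 38.5% in parental Panc89 against Panc1. In Holoclone against Paraclone cells they were 27.4% and 9.97% in Panc1 and 22.4% and 13.3% in Panc89. After median-of-ratios scaling they were 33.9% and 31.5%, 15.1% and 16.6%, and 18.1% and 18.6%, in the same order. Of 18 subunit and inhibitor genes tested, 5 were higher and 5 lower in parental Panc89, 4 higher and 5 lower in Panc1 Holoclone against Paraclone cells, and 3 higher and 5 lower in Panc89 Holoclone against Paraclone cells. NFKBIZ, which encodes a nuclear cofactor of NF-kB, was 1 of the 5 lower in Panc1 Holoclone cells, beside 4 that were higher. It stood at 9.79, 6.74 and 5.88 TPM in Panc1 Holoclone and at 49.9, 46.0 and 58.0 TPM in Panc1 Paraclone libraries. In Panc89 Holoclone cells RELB, a subunit of the alternative pathway, had a log2 difference from Paraclone cells of −1.98 ± 0.36.

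Of 17 other NF-kB targets tested, 11 were higher and 4 lower in parental Panc89, with LCN2, C3 and IL1A differing most. IL1A, an interleukin-1 gene, held 154, 153 and 141 TPM in parental Panc89 and at most 0.0683 TPM in Panc1. Between the Panc1 clones 2 were higher and 2 lower. ICAM1, the leukocyte adhesion molecule and 1 of the 2 lower ones, held 192, 98.0 and 139 TPM in Holoclone and 438, 444 and 471 TPM in Paraclone cells. Between the Panc89 clones 4 were higher and 7 lower, with IL6 and CSF3 lower in Holoclone cells and PTGS2, the inducible prostaglandin synthase, higher by 3.52 ± 0.30.

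Of 16 upstream receptors and adaptors, 7 were lower and 0 higher by limma in Panc1 Holoclone against Paraclone cells (8 and 2 at an unadjusted p under 0.05), with a list median of −0.37 beside a median of 0.19 over all genes. TNFRSF1B, a TNF receptor, stood at 1.95, 1.16 and 1.96 TPM in Holoclone and at 58.1, 27.6 and 21.2 TPM in Paraclone libraries. IL1RAP and TNFRSF1A were lower in Holoclone cells, with log2 differences of −1.82 ± 0.21 and −1.43 ± 0.11. In parental Panc89 against Panc1 the list had 5 higher and 5 lower genes and in the Panc89 clones 3 higher and 2 lower.

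Factors that bind beside NF-kB and proteins that act on chemokine mRNA or protein were counted last. Of 11 AP-1, C/EBP and early response genes, 7 were higher and 1 lower in parental Panc89, 1 higher and 1 lower in Panc1 Holoclone against Paraclone cells, and 2 higher and 0 lower by limma in the Panc89 clones (3 and 0 at an unadjusted p under 0.05). CEBPD was higher in parental Panc89 by 4.39 ± 0.28, lower in Panc1 Holoclone cells, with a log2 difference of −1.85 ± 0.28, and higher in Panc89 Holoclone cells by 1.21 ± 0.28. Of 8 regulators of AU-rich mRNA, which include decay factors for chemokine transcripts, 4 were higher and 1 lower in parental Panc89, 1 higher and 2 lower in the Panc1 clones and 1 higher and 2 lower in the Panc89 clones. ZC3H12A, an endoribonuclease that degrades inflammatory mRNA, was higher in parental Panc89 by 2.82 ± 0.21 and lower in Panc1 Holoclone than Paraclone cells, with a log2 difference of −1.53 ± 0.21.

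Of 7 sheddases and proteases tested, 2 were higher and 2 lower in parental Panc89, 0 higher and 2 lower by limma in Panc1 Holoclone cells (0 and 3 at an unadjusted p under 0.05) and 2 higher and 2 lower in Panc89 Holoclone cells. ADAM10 and ADAM17, which release CXCL16 and CX3CL1 from the membrane, were present throughout, at 74.2 to 146 TPM and 26.3 to 57.6 TPM. MMP1 stood at 0.265, 0.525 and 0.334 TPM in Panc1 Holoclone and at 204, 155 and 94.3 TPM in Panc1 Paraclone libraries. TIMP3, an inhibitor of sheddases, was higher in Panc89 Holoclone than Paraclone cells by 6.26 ± 0.14 on the log2 scale.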

How the data were processed

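Of each line, the parental culture and its Holoclone and Paraclone were sequenced with 3 replicates, giving 18 libraries, which were grouped by their labels. The authors prepared stranded mRNA libraries, ran kallisto 0.46.1 on Ensembl GRCh38 transcripts and used tximport to obtain scaled TPM. Per gene symbol, log2(TPM + 1) was deposited, and values raised back sum to 985339 to 988066 TPM per library. TPM keep no depth, and log2 differences on this scale understate the change of genes with levels around 1 TPM or less.

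Groups were compared by limma-trend (limma 3.58.1, R 4.3.3) in a model of 6 group means over all 18 libraries. It was fitted to 16093 genes that reached 1 TPM in no fewer than 3 libraries. The test for counts that the study used could not be applied to TPM. The p-values are two-sided and adjusted by Benjamini-Hochberg over all genes tested, and a gene was called at an adjusted p under 0.05. Errors of differences are standard errors and intervals are at 95%. The fit was tested on simulated data. Replicate numbers did not pair the libraries (18 same-numbered pairs within a line, correlation of deviations −0.318 to 0.190, mean −0.0418). The members and lists were chosen with earlier results of these data known. All members are named, and of each list at most the 3 called genes with the largest change in a comparison, beside genes whose levels describe the samples, the ligands' receptors or the parental libraries, which were picked after their values were seen. Positions are from GENCODE 44 and promoters from RefSeq GRCh38.p14. Alternatives were a pseudocount of 0.1, no filter, a fit of the groups compared alone, a replicate block, 2 other scalings, no variance trend, a fold limit and leaving out each library. Leaving out both parental libraries numbered 2 was added after seeing the data.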

Additional observations from a re-analysis of the deposited data

Results flagged for a closer look

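The Holoclone against Paraclone difference of 5 members differed between the lines by the limma interaction test, given as Panc89 minus Panc1 on the log2(TPM + 1) scale with a 95% interval. CXCL2 had 3.07 (1.57 to 4.57): it was lower in Holoclone cells of Panc1 and higher in those of Panc89. CXCL3 had 2.06 (0.67 to 3.45), although it was called within neither line. CXCL16 had −1.15 (−1.89 to −0.41), and was called in Panc1 alone. CCL2 had 2.64 (1.97 to 3.31) and CX3CL1 1.36 (0.40 to 2.32), and both were under 1 TPM in each Panc89 library. The value of CCL2 was thus in effect its Panc1 difference with the sign turned. Groups held 3 libraries, so no library was tested for standing apart from its group.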

How the results depend on the processing

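Of 504 member differences recomputed under other settings, 480 kept their direction and side of the threshold, 15 lost the call, 9 gained it and 0 reversed. Of 514 recomputed with libraries left out, 459 were kept, 37 lost the call, 13 gained it and 5 reversed. The reversed ones were not called: CXCL8 between the Panc89 clones (−0.27 to 0.093 with 1 library left out, the highest without Holoclone replicate 3) and CX3CL1 in Panc1 Paraclone against parental cells (−0.45 to 0.30 with 1 library left out, with −0.45 without parental replicate 2 and −0.08 and −0.06 without Paraclone replicate 2 or 3, and −0.45 without both parental libraries numbered 2). The count of members called changed by over 1.5 times in 5 comparisons, and the cause was not tested. Between the Panc89 clones it was 1 in place of 2 with no filter and with median-of-ratios scaling (CXCL2 was lost), and 1 to 2 with 1 library left out. For Panc1 Holoclone against parental cells it was 2 in place of 1 with median-of-ratios scaling and without both parental libraries numbered 2, and 1 to 2 with 1 library left out. For Panc89 Holoclone against parental cells it was 1 in place of 2 when only these groups were fitted (CXCL1 was lost), 6 without both libraries numbered 2, and 2 to 5 with 1 library left out. For Panc89 Paraclone against parental cells it was 1 in place of 3 when only these groups were fitted, and that 1 was CX3CL1, which is not among the 3 (under 1 TPM in both groups), 5 without both libraries numbered 2, and 1 to 3 with 1 library left out. For the interaction it was 8 in place of 5 when only the clones were fitted. In a fit with a replicate block (replicate numbers nested in their line, although they do not pair the libraries), 70 of the 72 differences were kept, and CXCL1 and CXCL8 between the Paraclone cells lost their calls, so 4 members in place of 6 were called there. Depth is unknown, so what it limits cannot be given.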
